A study of Mus musculus with 8 samples.

Results

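The natriuretic peptide system was followed through 8 genes in mouse heart ventricles: the peptide genes Nppa, Nppb and Nppc, the proteases Corin and Furin that process the precursors, and the receptors Npr1, Npr2 and Npr3. The genes were taken by name as members of 1 hormone system and by no threshold on a measured value, though with earlier results of these data known. All 8 were found among 23206 symbols of the deposited table (for a symbol with several entries, the most abundant one). The tissue was ventricle of C57BL/6 mice at postnatal day 21, with 4 samples from mice with a cardiac knockout of Med1 and 4 from mice whose Med1 alleles are floxed (Med1 fl/fl), called WT here as in the labels. Med1 is a subunit of Mediator, which connects transcription factors to RNA polymerase II. The promoter that drove the cardiac deletion is not given in the sources used here, nor whether a sample was 1 animal, so p-values may measure technical spread only. The comparison asks how the RNA of each gene differs between the 2 genotypes.

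Atrial natriuretic peptide (Nppa) and brain natriuretic peptide (Nppb) are hormones that heart muscle releases when it is stretched. The membrane protease corin cuts the atrial precursor and furin cuts the precursors of the brain and C-type peptides (Nppc). Npr1 binds the first pair of peptides and Npr2 the C-type peptide, and both receptors make cGMP, while Npr3 removes peptides from the circulation. In the mouse, Nppa is made in atria and ventricles of the embryo and mainly in the atria after birth. Both Nppa and Nppb are widely used markers of a ventricle under load.

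Nppa and Nppb are neighbours on chromosome 4 (mm10), where Nppb ends 13.5 kb before Nppa starts. Both genes were higher in every knockout library, so their promoter windows are shown. The RefSeq table (GRCm38.p6) matched all 8 genes with 9 windows of 300 bases, running from 250 bases before to 50 bases after a start site. Capitals mark letters that match 1 of the motifs searched on both strands: for GATA factors TGATAA, the variant AGATAA, the variant TGATAG and the variant AGATAG, for Nkx2-5 TNAAGTG, for TEAD factors CATTCC (the M-CAT element), for nuclear receptors the short element AGGTCA, and for SRF the CArG box by its name.
Nppa, chr4:148000472-148000771, plus strand: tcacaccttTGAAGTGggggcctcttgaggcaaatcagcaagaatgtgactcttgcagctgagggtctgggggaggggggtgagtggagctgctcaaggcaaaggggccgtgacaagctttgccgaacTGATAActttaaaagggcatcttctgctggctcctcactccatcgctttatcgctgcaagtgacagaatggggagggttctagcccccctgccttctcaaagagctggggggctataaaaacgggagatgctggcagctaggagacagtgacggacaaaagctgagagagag
Nppb, chr4:147985650-147985949, plus strand: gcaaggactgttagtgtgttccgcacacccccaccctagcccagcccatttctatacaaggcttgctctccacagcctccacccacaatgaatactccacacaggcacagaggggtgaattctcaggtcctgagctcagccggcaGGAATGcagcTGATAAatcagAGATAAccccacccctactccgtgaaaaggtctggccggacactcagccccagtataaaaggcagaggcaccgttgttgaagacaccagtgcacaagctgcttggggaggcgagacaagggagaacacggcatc

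Both windows held TGATAA in the direction of the gene, at -122 to -117 from the start site of Nppa and at -95 to -90 from that of Nppb. Nppb held a further AGATAA at -84 to -79 and an M-CAT element on the opposite strand at -105 to -100, and Nppa held an Nkx2-5 match at -241 to -235. None of these matches overlapped another. Over all 32851 promoter windows of this length, 29.8% held a GATA match, 11.5% an Nkx2-5 match, 14.7% an M-CAT match, 16.3% an AGGTCA element and 1.63% a CArG box. The last 2 motifs were not found in either window. No letters of the motif set were found in the windows of Nppc, Npr1, Npr2, Npr3 and Corin, and 1 of the 2 Furin windows held a pair of Nkx2-5 matches. A match describes the letters and is no evidence of binding. The Npr3 window lies outside the locus given in the deposited table, which ends at 11905674 on chromosome 15, before the window's start at 11907322.

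Med1 itself was lower in all knockout libraries. FPKM counts a gene's fragments relative to its transcript length and to all fragments of its library. Med1 was at 7.80, 8.37, 7.89 and 9.15 FPKM in knockout 1 to 4, and at 15.5, 16.1, 10.6 and 16.8 in WT 1 to 4. The difference in mean was -6.45 FPKM (exact two-sided permutation p = 0.0286, the smallest that 70 assignments allow). The number of fragments per library is unknown, and FPKM totals ran from 481700 to 536200. The first comparison across all genes, by limma on log2(FPKM + 1), covered the 11975 genes whose mean reached 1 FPKM. At a Benjamini-Hochberg adjusted p under 0.05 it called 61.3% of them, 44.9% as higher and 16.4% as lower in the knockout. The median log2 change of all genes was 0.25. After rescaling the libraries by the median of ratios it was 0.01, and 53.9% of genes were called, 27.0% as higher and 26.9% as lower. With quantile normalization 28.7% were higher and 25.6% lower. Changes are given on the deposited scale, with rescaled values or counts beside them.

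Of the 8 genes, 7 passed the expression minimum and 5 of these were called: Nppa, Nppb, Furin and Npr2 as higher, and Corin as lower. That is 71.4% of those tested, beside 61.3% of all genes (44.9% higher, 16.4% lower). After rescaling 4 were called, 3 higher and 1 lower, beside 53.9% of all genes (27.0% and 26.9%), and Npr2 was not among them. The same 4 were called with quantile normalization, beside 28.7% of all genes higher and 25.6% lower. The knockout libraries lay wholly above WT for Nppa, Nppb and Furin and wholly below for Corin. Groups did not overlap in 57.1% of all genes tested, with the knockout above in 41.7% and below in 15.3%.

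**Figure D1:**
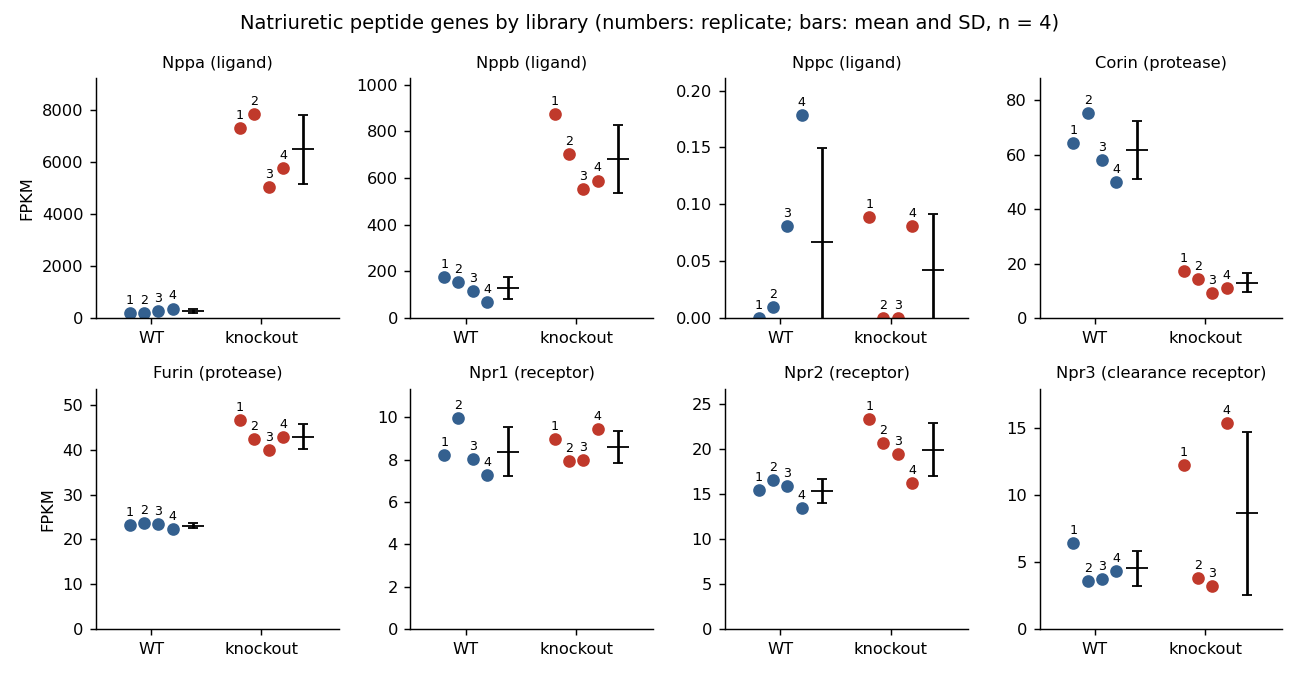
FPKM of the 8 genes in each library, with a linear axis from 0 in each panel, WT in blue and knockout in red. Numbers name the replicate and black bars give the mean and SD (n = 4, cut off at 0 for Nppc). Nppa, Nppb and Furin sit above WT in all 4 knockout libraries and Corin below, while Npr3 is high in knockout 1 and 4 only.

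Nppa rose most among the ligands. The gene (chr4:148000746-148002067, in mm10) had 7296, 7829, 5018 and 5760 FPKM in knockout 1 to 4 and 214, 188, 279 and 372 FPKM in WT 1 to 4. The groups were far apart, with the lowest knockout library 13.5 times above the highest WT library. Mean levels of 6476 ± 1309 against 263 ± 82.0 FPKM (SD, n = 4 each) gave a log2 change of 4.64 (SE 0.222, adjusted p = 8.10e-07 by limma). After rescaling the change was 4.36. Nppa went from place 232 to 390 among all entries ordered by FPKM in the WT libraries to place 1 to 6 in the knockout libraries. It was the most abundant transcript of knockout 1. Its share of the FPKM total of a library went from 0.0503% ± 0.0150 to 1.32% ± 0.268 (SD, n = 4).

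Nppb (chr4:147985789-147987205) rose less. It had 876, 704, 553 and 589 FPKM in the knockout libraries and 178, 155, 116 and 69.0 FPKM in WT. Here too the groups were apart, with a gap of 3.11 times between the lowest knockout and the highest WT library. Its log2 change was 2.45 (SE 0.276, adjusted p = 6.61e-05 by limma), and 2.17 after rescaling. Nppb stood at place 57 to 139 in the knockout libraries and 401 to 930 in WT. Nppc, the C-type peptide gene (chr1:86666293-86670573), was close to 0 in both groups, with 0.0890, 0, 0 and 0.0806 FPKM in the knockout libraries and 0, 0.00944, 0.0814 and 0.178 FPKM in WT. It lay under the minimum and was not tested in the main fit, and no change is read from values at this level.

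The balance of the 2 cardiac peptides differed between the genotypes. Nppa exceeded Nppb in all 8 libraries, by 8.33, 11.1, 9.07 and 9.77 times in knockout 1 to 4 and by 1.203, 1.206, 2.40 and 5.38 times in WT 1 to 4. The knockout ratios were close together and all above WT, whose own ratios were spread. The mean log2 ratio was 3.25 ± 0.177 in the knockout and 1.06 ± 1.03 in WT (SD, n = 4 each). The difference of 2.19 had an exact two-sided permutation p of 0.0286, adjusted over 3 gene ratios to 0.0429. This ratio does not change when all values of a library are multiplied by 1 factor. Quantile normalization, which is no such factor, gave log2 changes of 4.98 for Nppa and 2.42 for Nppb. In WT, the library with the most Nppa (WT 4) had the least Nppb, whereas in the knockout the library with the least Nppa (knockout 3) also had the least Nppb. Without any 1 knockout library the difference was no longer called (adjusted exact permutation p = 0.0857 each), and the range over all left-out libraries was 1.93 to 2.65.

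Among the processing enzymes, Corin and Furin moved in opposite directions. Corin, the serine protease that activates the atrial peptide at the surface of heart muscle cells (chr5:72300025-72504540), had 17.2, 14.4, 9.40 and 11.0 FPKM in the knockout libraries and 64.3, 75.4, 58.0 and 50.1 FPKM in WT. All knockout values were below WT, and the lowest WT library was 2.92 times above the highest knockout library. The knockout mean was 21.0% of WT, with a log2 change of -2.19 (SE 0.185, adjusted p = 1.33e-05 by limma) and -2.46 after rescaling. In these bulk samples, fewer cells that make a transcript and less of it per cell cannot be told apart.

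Furin, a proprotein convertase of the secretory pathway that most cells express (chr7:80389194-80405431), had 46.6, 42.5, 40.0 and 42.9 FPKM in the knockout libraries and 23.1, 23.6, 23.4 and 22.3 FPKM in WT. It was the least variable of the 8 genes, with a coefficient of variation of 6.40% in the knockout and 2.63% in WT. The mean was 1.86 times that of WT, with a log2 change of 0.87 (SE 0.0687, adjusted p = 9.73e-06 by limma) and 0.59 after rescaling. The ratio of Corin to Furin was 0.368, 0.340, 0.235 and 0.256 in the knockout libraries and 2.78, 3.19, 2.48 and 2.25 in WT. Corin was thus the more abundant protease in every WT library and Furin in every knockout library. The mean log2 ratio differed by -3.17 (exact two-sided permutation p = 0.0286, the smallest that 70 assignments allow, adjusted over the 3 ratios p = 0.0429). With Corin wholly below and Furin wholly above WT, the ratio had to separate the groups. Its p is therefore no support beyond the results of each gene. The difference in this ratio was also not called without any 1 knockout library (adjusted exact permutation p = 0.0857 each). Every remaining knockout ratio still lay below every WT ratio, and the adjusted p depends also on the other ratios. The lost call therefore does not show that the difference rests on 1 library. Over all left-out libraries the difference ranged from -3.28 to -3.06.

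**Figure D2:**
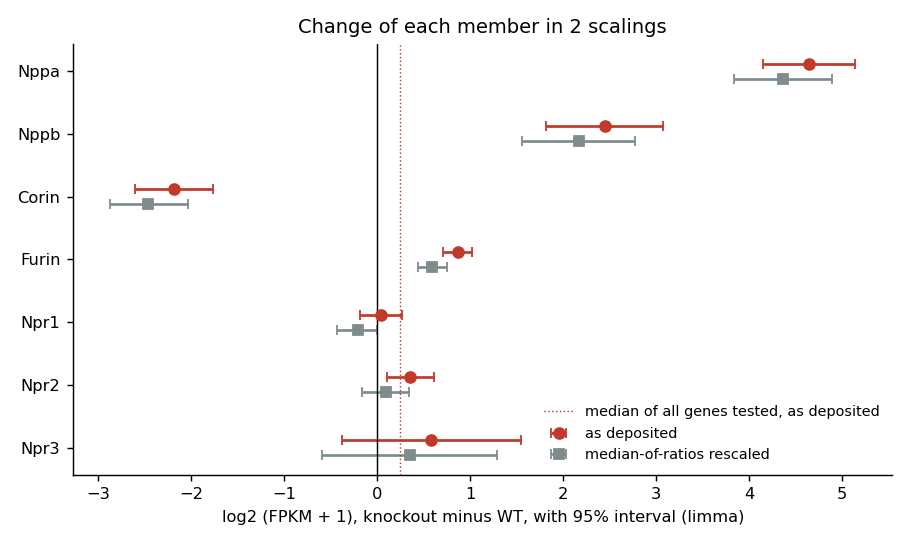
Log2 change (knockout minus WT, limma on log2(FPKM + 1)) of the 7 tested genes with its 95% interval, as deposited (red circles) and after median-of-ratios rescaling (grey squares). The dotted line is the median of all genes as deposited, 0.25. Nppa, Nppb, Furin and Corin stay clear of 0 on both scales, and the interval of Npr2 includes 0 after rescaling.

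Of the receptor genes only Npr2 was called, and not after rescaling. Npr1, the cGMP-forming receptor of the atrial and brain peptides (chr3:90450592-90465866), had 8.99, 7.94, 7.996 and 9.46 FPKM in the knockout libraries and 8.21, 9.99, 8.04 and 7.28 FPKM in WT. The groups overlapped throughout. Its log2 change of 0.04 had a 95% interval from -0.19 to 0.27 (limma adjusted p = 0.767). After rescaling it was -0.21, with an interval from -0.43 to 0.00 (adjusted p = 0.0887), so the sign depends on the scaling and no call was made on either scale.

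Npr2, the receptor of the C-type peptide (chr4:43631935-43651240), had 23.3, 20.7, 19.4 and 16.3 FPKM in the knockout libraries and 15.4, 16.5, 15.9 and 13.4 FPKM in WT. Knockout 4 lay within the WT range and the other knockout libraries above it. The log2 change was 0.35 (95% interval from 0.10 to 0.61, limma adjusted p = 0.0213). It was 0.09 after rescaling (adjusted p = 0.533), and the call was also lost without WT replicate 4 (adjusted p = 0.0621). In the authors' deposited table its log2 fold change was 0.10 with a q-value of 0.587. Npr2 was the most abundant receptor in all 8 libraries, with 54.8% ± 11.5 of the summed FPKM of the 3 receptors in the knockout and 54.3% ± 2.57 in WT (SD, n = 4).

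Npr3, the clearance receptor (chr15:11839897-11905674), was split within the knockout group. It had 12.2 FPKM in knockout 1 and 15.3 in knockout 4, against 3.78 and 3.18 in knockout 2 and 3. The WT libraries had 6.44, 3.56, 3.73 and 4.33 FPKM, so that knockout 2 lay within the WT range, knockout 3 below it, and the other pair above it. The coefficient of variation was 70.5% in the knockout, higher than in any other tested gene of the 8, and 29.3% in WT. The log2 change of 0.58 had an interval from -0.38 to 1.55 and was not called (limma adjusted p = 0.263). Without knockout 1 and 4, an alternative added after the data were seen, it was -0.27 (adjusted p = 0.265). In the authors' deposited table, which compares pooled groups, Npr3 had 9.03 FPKM against 5.81 in WT and a q-value of 7.63e-04, and 45.8% of genes tested there had a q-value under 0.05. The share of Npr3 in the receptor sum was 27.5%, 11.7%, 10.4% and 37.4% in knockout 1 to 4 and 21.4%, 11.8%, 13.5% and 17.3% in WT 1 to 4. The log2 ratio of Npr3 to Npr1 differed by 0.61 (exact permutation p = 0.314, also 0.314 when adjusted).

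Levels per transcript length gave the order Nppa, Nppb, Corin, Furin, Npr2, Npr1, Npr3 and Nppc in WT, where only the ranges of Nppb and Corin overlapped between neighbours. Even so, Nppb was above Corin in all 4 WT libraries. In the knockout the order was Nppa, Nppb, Furin, Npr2, Corin, Npr3, Npr1 and Nppc. There the ranges of Npr2 and Corin, of Corin and Npr3 and of Npr3 and Npr1 overlapped, and the means of the last pair, 8.64 and 8.60 FPKM, were within their spread.

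The libraries differed in genes typical of atrial muscle, and Nppa is itself one, so the list of 11 other atrial markers is given beside it. Of 10 markers tested, 5 were higher (Myl7, Myl4, Sln, Dkk3 and Tbx18) and 2 lower (Kcnj3 and Kcna5), with 4 higher and 2 lower after rescaling. Of all genes, 44.9% were higher and 16.4% lower as deposited, and 27.0% and 26.9% after rescaling. Nr2f2, Nr2f1 and Bmp10 were not called. Myl7, Sln and Bmp10 were under 1 FPKM in every WT library, so they reached the minimum only through the knockout. They could be called only as higher, so the count of higher markers was in part fixed by the minimum. Kcnj3, a potassium channel subunit, was at 1.03 ± 0.629 FPKM in the knockout and 19.7 ± 3.57 in WT (SD, n = 4). Their summed level was 196, 132, 50.4 and 1809 FPKM in knockout 1 to 4 and 41.6 to 50.8 FPKM in WT. The atrial myosin light chain Myl7 had 61.6, 42.6, 2.50 and 726 FPKM in the knockout libraries and 0 to 0.680 FPKM in WT. Bmp10, a growth factor of atrial muscle, had 6.21 and 66.0 FPKM in knockout 1 and 4 and was listed at 0 in the other 6 libraries, and sarcolipin (Sln) was listed at 0 in all WT libraries. Knockout 3, whose atrial marker sum was within the WT range, had 0.890 FPKM of Kcnj3 against 14.4 to 22.3 FPKM in WT, and lay above every WT library for Myl4 (19.1 against at most 6.34 FPKM), Myl7 (2.50 against at most 0.680), Dkk3 (7.44 against at most 1.44) and Sln (0.429 against 0). It had 19.1 times the WT mean of Nppa and 4.27 times that of Nppb. Knockout 4, with the most atrial marker RNA, had 21.9 and 4.55 times. Across the knockout libraries Myl7 varied 291 times, Sln 439 times and Myl4 41.0 times, against 1.56 times for Nppa and 1.58 times for Nppb. The fit without knockout 1 and 4 was added after the data were seen. Its log2 changes were 4.62 for Nppa, 2.34 for Nppb, -2.30 for Corin and 0.81 for Furin. All were still called (limma adjusted p from 1.71e-05 to 7.08e-04). Knockout 2, which this fit kept, had an atrial marker sum of 132 FPKM, above the WT range, and 42.6 FPKM of Myl7. The fit thus did not leave out every library high in atrial markers. The part of atrial muscle RNA in these changes was not tested.

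**Figure D3:**
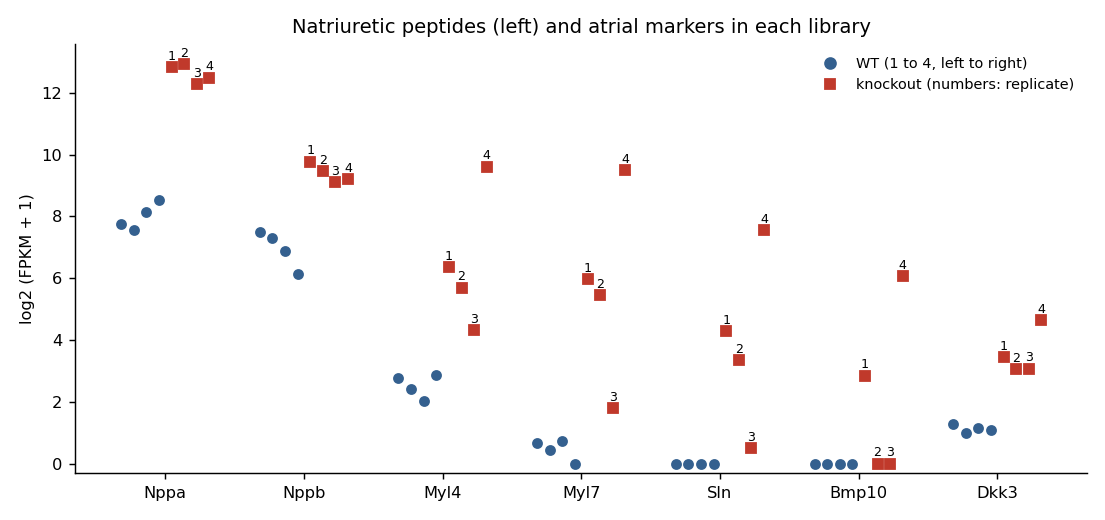
Log2(FPKM + 1) of Nppa, Nppb and 5 atrial markers in each WT (circles) and knockout (squares, numbered by replicate) library. The 5 markers shown (Myl4, Myl7, Sln, Bmp10 and Dkk3, of 11 in the list) are highest in knockout 4, while the 4 knockout values of Nppa and of Nppb lie close together.

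Among markers of ventricular muscle, the light chain Myl2 was abundant in both groups, at 16550 ± 804 FPKM in WT and 6152 ± 1893 FPKM in the knockout (SD, n = 4). Of 5 such markers, 4 were lower in the knockout on both scales (Myl2, Myl3, Irx4 and Mpped2), beside 16.4% of all genes as deposited and 26.9% rescaled. Hey2 had a log2 change of 0.24 and was not called. Their sum was 6510 to 12030 FPKM in the knockout and 22500 to 23720 FPKM in WT. The part of these shifts in the results for the 8 genes was not tested.

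Npr3 is strong in the inner lining of the heart, so endocardial markers are given beside it. Of 5 endocardial markers tested, 4 were higher (Plvap, Vwf, Tmem108 and Nfatc1) and 0 lower, with Plvap and Vwf higher after rescaling. Of all genes 44.9% were higher as deposited and 27.0% rescaled. Hapln1 was under the minimum. Tmem108 had a mean of 0.773 FPKM in WT and reached the minimum only through the knockout, so it could be called only as higher. The summed level of all 6 was 79.3, 35.6, 36.2 and 120 FPKM in knockout 1 to 4 and 28.8 to 33.5 FPKM in WT. Vwf, the von Willebrand factor gene, had 46.9 and 46.4 FPKM in knockout 1 and 4, the libraries high in Npr3, and 12.5 and 16.9 FPKM in knockout 2 and 3. Cytl1, named after its values were seen, was high in knockout 4, at 29.3 FPKM against 2.63 to 6.18 FPKM in the other knockout libraries and 8.75 to 13.2 FPKM in WT. Knockout 1, with 6.18 FPKM, was thus high in Npr3 and below every WT library in Cytl1. General endothelial markers varied less, with sums from 433 to 572 FPKM in the knockout and 397 to 504 FPKM in WT, and 2 of 10 called in each direction (0 higher and 4 lower after rescaling). Red cell markers were also highest in knockout 4 (10350 FPKM in sum, against 1206 to 2735 in the other knockout libraries and 1358 to 7050 in WT), and none of the 5 was called. Among the other cell types, 5 of 8 fibroblast markers were higher and 0 lower (3 and 0 after rescaling), with sums of 903 to 1608 FPKM in the knockout and 616 to 726 in WT. Mural cell markers gave 3 higher and 3 lower of 8 (1 and 3 rescaled). Trabecular and conduction markers gave 1 and 2 of 5 (0 and 3 rescaled), and immune markers 0 of 6 in either direction (0 and 2 rescaled, C1qa and C1qb). The shares over all genes were 44.9% higher and 16.4% lower, and 27.0% and 26.9% rescaled. The part of these cell types in the spread of Npr3 was not tested.

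**Figure D4:**
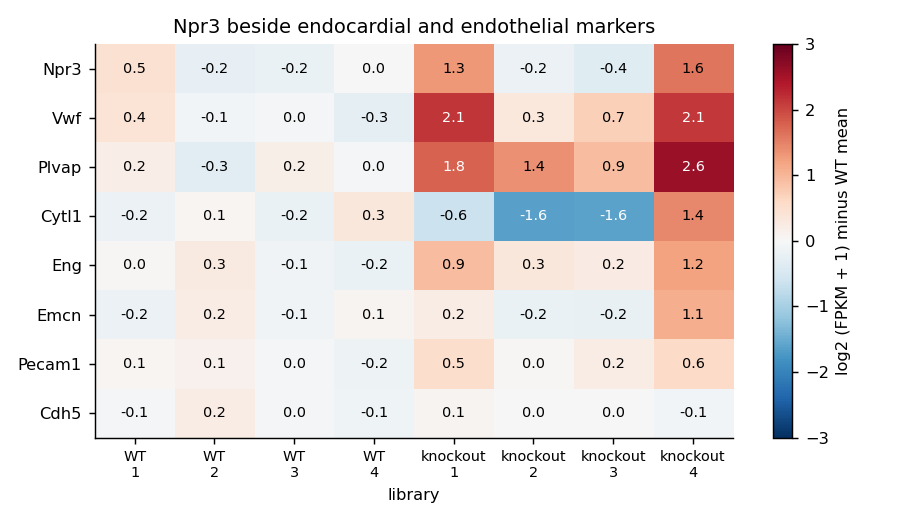
Difference of log2(FPKM + 1) from the WT mean for Npr3, 3 endocardial markers (Vwf, Plvap, Cytl1) and 4 endothelial markers in each library. Npr3 and Vwf are both raised in knockout 1 and 4 and nearer to WT in knockout 2 and 3. Cytl1, Emcn and Cdh5 were picked after their values were seen.

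Further genes that process or break down the peptides gave 4 higher and 2 lower of 8 tested, beside 44.9% and 16.4% of all genes, and a median log2 change of 0.28 beside 0.25. The convertase gene Pcsk5 was at 0.811 ± 0.0584 FPKM in WT and rose to 3.89 ± 1.48 (SD, n = 4, adjusted p = 3.16e-04 by limma). It was under 1 FPKM in every WT library and reached the minimum only through the knockout, so it could be called only as higher. Pcsk7, a relative of Furin, rose by 0.64 on the log2 scale, and the glycosyltransferase Galnt2 by 0.73. Mme encodes neprilysin, which degrades natriuretic peptides, and it fell from 3.07 ± 0.425 to 0.669 ± 0.296 FPKM (log2 change -1.30, adjusted p = 8.03e-05). In turn, Mme reached the minimum only through WT and could be called only as lower. Pcsk6, the convertase that activates corin, had 16.3 to 22.4 FPKM in the knockout libraries and 22.5 to 29.1 FPKM in WT, a smaller fall (log2 change -0.34, adjusted p = 0.0246). After rescaling 4 were higher and 3 lower, beside 27.0% and 26.9% of all genes.

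Of 10 secretory granule genes only 3 reached the minimum, and 2 of them rose, beside 44.9% of all genes (27.0% rescaled). Pam is a main membrane protein of atrial granules and stood at 329 ± 25.5 FPKM in the knockout and 137 ± 8.58 in WT (SD, n = 4), higher by 1.25 in log2 (adjusted p = 3.36e-06 by limma). Carboxypeptidase E (Cpe) stood at 270.2 ± 15.8 FPKM in the knockout and 134 ± 9.70 in WT (adjusted p = 9.12e-06). After rescaling both were called higher, with log2 changes of 0.97 and 0.72. Rab27a, the third gene, was not called.

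Genes that make, use or break down cGMP gave 4 higher and 2 lower of 14 tested, and 2 higher and 4 lower after rescaling. Of all genes 44.9% were higher and 16.4% lower as deposited, and 27.0% and 26.9% after rescaling. The share called, 42.9%, lay below the 61.3% of all genes. Prkg1, the main cGMP-dependent kinase of muscle, was at 12.7 ± 2.81 FPKM in the knockout and 3.68 ± 0.349 in WT (SD, n = 4), a log2 rise of 1.53 (adjusted p = 2.07e-05 by limma). Pde9a, a phosphodiesterase selective for cGMP, had 2.41, 8.35, 7.09 and 4.92 FPKM in the knockout libraries and 1.72 to 3.03 FPKM in WT. Its log2 change of 0.94 was called as deposited (adjusted p = 0.0171) but not after rescaling. Pde1a rose by 0.79. Pde1c, which hydrolyses both cyclic nucleotides, fell from 17.6 ± 0.886 FPKM in WT to 1.74 ± 0.719 in the knockout, with a log2 change of -2.79 (adjusted p = 1.50e-06). Pde2a, which cGMP activates, fell by 0.45 on the log2 scale.

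Known substrates and effectors of the cGMP-dependent kinases were called in 7 of 8 tested cases, 3 higher and 4 lower, with 3 and 5 after rescaling. Of all genes 61.3% were called as deposited (44.9% higher, 16.4% lower) and 53.9% rescaled (27.0% higher, 26.9% lower). Ppp1r12a, the targeting subunit of myosin phosphatase, rose by 1.23 on the log2 scale, Vim by 1.03 and Vasp, an actin regulator, by 0.83. Phospholamban (Pln), which restrains the calcium pump, had a log2 change of -4.47, and Rgs2, an inhibitor of Gq signalling, was at 8.08 ± 1.37 FPKM in the knockout and 30.5 ± 6.83 in WT (SD, n = 4, adjusted p = 2.41e-05 by limma). Mybpc3 fell by 0.51.

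**Figure D5:**
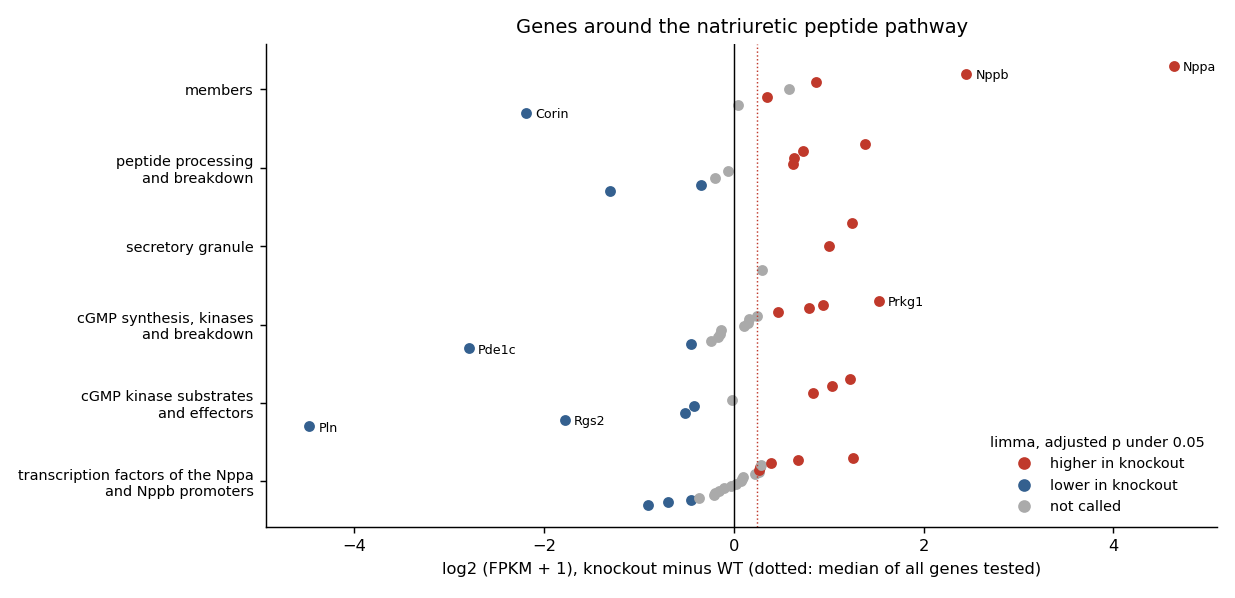
Log2 change (knockout minus WT, limma) of each tested gene in the 8-gene set and in 5 lists around it, coloured by call, with the median of all genes dotted. Genes beyond 1.5 in either direction are named. Of the transcription factors 13 of 21 were not called, and the 8-gene set spans from Corin at -2.19 to Nppa at 4.64.

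Among transcription factors known to act on the Nppa and Nppb promoters, 13 of 21 tested were not called. Of the 21, 5 were higher and 3 lower, with 2 higher and 10 lower after rescaling. The share called was 38.1%, beside 61.3% of all genes (44.9% higher, 16.4% lower), and the median log2 change was 0.08, beside 0.25. After rescaling 27.0% of all genes were higher and 26.9% lower. The T-box factor Tbx20 was at 52.6 ± 2.55 FPKM in the knockout and 21.3 ± 0.694 in WT (SD, n = 4), a log2 rise of 1.26 (adjusted p = 1.14e-06 by limma). Srf, which binds the CArG box, rose by 0.68, and Nkx2-5 rose by 0.39 as deposited and had a log2 change of 0.12 after rescaling, where it was not called. Tbx5, an activator of Nppa, had 2.98, 1.68, 2.24 and 6.41 FPKM in the knockout libraries and 5.41 to 7.54 FPKM in WT (log2 change -0.90, adjusted p = 0.0174). Nfatc2 and Myocd fell by 0.69 and 0.45. Gata4 and Gata6, named here for the GATA matches after their values were seen, had log2 changes of -0.10 and 0.02 and were not called as deposited. Both were called lower after rescaling, at -0.38 and -0.25.

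A list of 14 further genes known from stressed or fetal heart muscle gave 9 higher and 2 lower of 12 tested (8 and 2 after rescaling), beside 44.9% and 16.4% of all genes (27.0% and 26.9%), and a median log2 change of 1.90 beside 0.25 for all genes. The skeletal actin gene Acta1, Uchl1 and the matricellular gene Ctgf had log2 changes of 3.63, 3.37 and 3.36. Myh7 and Actc1 had -3.08 and -0.79. Gdf15, among those higher, had a mean of 0.289 FPKM in WT and reached the minimum only through the knockout. The log2 change of Nppa (4.64) was above, and that of Nppb (2.45) within, the range of the members of this list that rose.

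The genes described here within 100 kb of Nppb or Nppa had smaller log2 changes than either peptide gene. Clcn6, a chloride transporter gene and the nearest, lies 4.42 kb from Nppa and had 4.09 ± 0.636 FPKM in the knockout and 2.995 ± 0.658 FPKM in WT (SD, n = 4). Its log2 change of 0.36 was not called (limma adjusted p = 0.0552). Plod1 and 2510039O18Rik rose by 0.61 and 0.54. The mitochondrial fusion gene Mfn2 had a log2 change of -1.01, Agtrap one of 0.13 that was not called, and Draxin was near 0 in both groups. After rescaling Plod1 and 2510039O18Rik were called higher and Mfn2 lower, as before.

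Likeness was measured as the root mean square difference over the 8 libraries in log2(FPKM + 1), each gene centred on its own WT mean. The genes closest to Nppa were Tpm2 (0.258), Col8a1 (0.475), Rnd1 (0.497), 4833412C05Rik (0.544) and Lox (0.545). Tpm2, a tropomyosin gene, was at 171 ± 9.19 FPKM in the knockout and 5.84 ± 0.812 in WT (SD, n = 4). The genes closest to Nppb were Ppp1r15a (0.338), Morn4 (0.361), Nupr1 (0.361), Efhd2 (0.391) and Ttll7 (0.393). Ppp1r15a, a regulator of translation under stress, was at 50.6 ± 6.37 and 9.94 ± 1.67 FPKM. For Npr3, looked at after its split was seen, the closest were Gm4788 (0.268), Spon1 (0.285), Igfbp6 (0.316), Ptgs1 (0.327) and Ms4a6d (0.330). None of these 5 was called between the genotypes, beside 61.3% of all genes called. They were picked for likeness to a gene that was not called, so this follows at least in part from the choice.

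GENCODE M21 (GRCm38) lists all 8 genes as protein-coding. It places an antisense gene across Nppa, Npr1, Npr2, Corin and Furin, and a gene on the opposite strand at the promoter of Npr3. The libraries were strand-specific, but whether the counting used strand is not given in the sources used here, so reads of these partners cannot be told apart from those of the genes. Corin also overlaps the long non-coding RNA gene AU023070 and the small nuclear RNA genes Gm25768 and Gm23712 on its own strand. Counting by strand would not separate these from Corin.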

How the data were processed

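Poly(A) RNA of 8 ventricle samples was made into stranded libraries and sequenced, per the labels' protocols. The authors aligned reads to mm10 with TopHat (1.0.0) and used Cufflinks and Cuffdiff for transcripts and tests, as listed in the submitters' processing notes. The deposited tables give FPKM for each library and, from the authors' own comparison, pooled FPKM with a log2 ratio, p-values, q-values and a test score that was not used here. Since FPKM is relative, abundant transcripts lower the values of all others. The value 0.001, which stands in the deposited table where an estimate was 0, was set back to 0. Of 23847 rows, 312 had no number in any library and were left out, and 1 row with a number missing in some libraries was kept.

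Groups and replicate numbers came from the titles. Log2(FPKM + 1) was fitted with limma 3.58.1 (R 4.3.3, variance trended on intensity) where the mean over all libraries reached 1 FPKM. A gene with a mean under 1 FPKM in 1 group could thus be tested only if it was higher in the other group. Adjusted p-values are two-sided, by Benjamini-Hochberg over all genes tested, with a threshold of 0.05. Med1 and 3 gene ratios were compared by exact permutation tests. The procedure was tested on simulated data in which few genes were shifted and the libraries did not differ in scale. That test therefore does not cover the scaling of these libraries. Alternatives were the pseudocount, the minimum, the scaling, the variance model, the replicate block and each library left out.

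The genes and lists (6 pathway and 9 marker lists) were chosen with earlier results of these data known. Named are the 8 genes, Med1, per pathway list up to 3 called genes in each direction by size of change, the atrial and ventricular markers, up to 2 markers by mean FPKM of each other list, genes within 100 kb of Nppa or Nppb, and the 5 genes most like each. Some of these are not reported here. Others are named as members of small counts or said to be picked later. Loci are printed counting from 1. Promoter letters come from RefSeq.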

Additional observations from a re-analysis of the deposited data

Results flagged for a closer look

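In 181 groups of 4 libraries of the named genes and ratios, 1 library stood apart from the other 3 by more than Dixon's 95% critical value in 11 cases, where chance gives about 1 in 20. None was a natriuretic peptide, protease or receptor gene.

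Knockout 4 stood apart in 8 of them. It was highest for Myl4 (781 FPKM, next 81.7), Myl7 (726, next 61.6), Sln (188, next 18.6), Bmp10 (66.0, next 6.21), Dkk3 (23.95, next 9.83), Cytl1 (29.3, next 6.18) and Col3a1 (604, next 346). It was lowest for Tbx20 (48.8, next 53.4). Knockout 1 stood apart for Pcsk7 (14.55 FPKM, next 13.3) and knockout 2 for Pde1c (2.81, next 1.45). WT 4 was lowest for Efhd2 (10.1 FPKM, next 11.3).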

How the results depend on the processing

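Nppa, Nppb, Corin and Furin kept direction and call in all 18 alternatives of the gene-wise fit, with log2 changes from 4.36 to 4.98, 2.17 to 2.63, -2.46 to -2.06 and 0.59 to 0.90. Npr2 (0.35) lost its call with no minimum (0.35, limma adjusted p = 0.0578), rescaled (0.09), quantile normalized (0.10, adjusted p = 0.456) and without WT replicate 4 (0.30), and left-out libraries gave 0.28 to 0.44. Npr1 (0.04, not called) was negative after rescaling (-0.21), after quantile normalization (-0.20) and without knockout 1 and 4 (-0.06), and from -0.02 to 0.12 with 1 library left out. Npr3 (0.58, not called) was -0.27 without knockout 1 and 4 and from 0.25 to 0.90 with 1 library left out. Nppc, under the minimum of the main fit, had a difference in mean log2 of -0.03, and of -0.17 with a pseudocount of 0.1 FPKM. So close to 0, these values depend on the pseudocount and are not read as a change. With no minimum Nppc was tested and not called (-0.03, limma adjusted p = 0.875). Counts of higher and lower genes were 5372 and 1964, 3237 and 3223 rescaled, and 3432 and 3066 quantile normalized, so that 73.2%, 50.1% and 52.8% of calls were higher.

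Leaving out 1 library gave differences from 1.93 to 2.65 in the log2 ratio of Nppa to Nppb, from -3.28 to -3.06 in that of Corin to Furin and from -7.84 to -5.76 FPKM in Med1. The calls of all 3 were lost without any 1 knockout library (exact permutation p from 0.0571 to 0.0857, adjusted for the ratios) and kept without any 1 WT library. In each of these cases the remaining knockout and WT values still did not overlap. The titles state no pairing of samples by replicate number. Deviations of same-numbered libraries correlated at 0.14, 0.0325, -0.0409 and -0.0138, which cannot settle whether samples were paired. With the replicate block Npr2 was 0.35 (adjusted p = 0.0131), no call among the 8 genes changed, and 5089 genes were higher and 1867 lower. Paired sign flips gave 2.19, -3.17 and -6.45 for both ratios and Med1, with an exact p of 0.125, the smallest that 4 pairs allow. The depth in fragments is unknown, so no interval of counting error can be given for Nppc.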
